A study of Mus musculus with 4 samples.

Results

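The cell cycle and DNA replication genes described here are 46 genes of the mouse, chosen as a list of gene symbols and not by their values on these arrays. They were parted by role into 12 genes of the G1 phase, 19 genes of DNA replication and 15 genes of mitosis. Of the 46 genes, 45 had a probe set that the array annotation pairs with that gene alone, out of 18193 genes with such a probe set in all. The one left without a value is *Ccnb1*, which encodes cyclin B1. A gene was read from its single-symbol probe set, or from the brightest of them by mean log2 signal, and 34 of the 45 genes had more than 1 such probe set.

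The study asked how *Hand2*, a bHLH transcription factor of the lower jaw, acts when it is made throughout the neural crest. RNA was hybridised to 4 arrays (GeneChip Mouse Genome 430 2.0), with 1 array of pooled RNA for each condition. The genotypes were wild-type and a mutant labelled *Hand2* CAT/+; *Wnt1-Cre*, each at embryonic day E11.5 with the whole body as the labelled tissue and at E12.5 with the head. At E11.5 a legend of the study names heads instead, and the labels were followed here. All came from a mixed C57BL/6J x ICR background, and the wild-type embryos were littermates. The mutant, named *Hand2NC* below, carries a transgene in which a broadly active CAG promoter is kept from *Hand2* by a lox-flanked CAT cassette. *Wnt1-Cre* removes that cassette in the neural crest lineage, and the tissues taken also hold cells of other lineages. Pooling leaves no spread between embryos, so no difference below has a replicate check and no p-value was computed. At each step between stages the labelled tissue changes with the age, and these cannot be told apart.

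A dividing cell commits itself in G1, when cyclin D with Cdk4 or Cdk6 and then cyclin E with Cdk2 phosphorylate the retinoblastoma protein and release the E2F factors. E2F factors drive the genes that load the Mcm helicase on replication origins and copy the DNA. Later in the cycle cyclin A, cyclin B and Cdk1 carry the cell into mitosis, and their genes are switched on late through promoter elements known as CHR. Inhibitors such as p21 and p27 hold cells back, and in the embryonic brain p27 builds up as progenitors leave the cycle and become neurons.

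Stretches of promoter sequence are shown because replication and mitotic genes are known for different promoter elements. They were taken from RefSeq (GRCm38.p6) and cover the 120 bases before the annotated start, read 5′ to 3′ in the direction of the gene, and capitals mark the matched words. The first group are replication genes with E2F words, searched as TTTCCCGC, TTTGGCGC and TTTCGCGC on both strands.
Mcm6: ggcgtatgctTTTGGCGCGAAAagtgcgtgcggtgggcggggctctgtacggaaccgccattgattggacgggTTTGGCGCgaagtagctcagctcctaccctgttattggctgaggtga
Orc1: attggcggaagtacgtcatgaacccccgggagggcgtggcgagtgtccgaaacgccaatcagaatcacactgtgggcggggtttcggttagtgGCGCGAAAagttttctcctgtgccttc
Rfc3: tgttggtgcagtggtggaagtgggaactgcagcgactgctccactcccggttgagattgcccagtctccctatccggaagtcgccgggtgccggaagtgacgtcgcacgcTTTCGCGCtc
These lie at chr1:128359706-128359825 on the minus strand for *Mcm6*, chr4:108579334-108579453 on the plus strand for *Orc1* and chr5:151651209-151651328 on the minus strand for *Rfc3*. In *Mcm6* the upstream capitals hold a forward and a reverse word that overlap. The next group are mitotic genes with the CHR word TTTGAA, also searched on both strands.
Cdk1: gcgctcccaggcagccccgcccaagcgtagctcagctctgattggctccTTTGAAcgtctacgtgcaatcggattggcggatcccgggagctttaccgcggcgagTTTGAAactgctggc
Top2a: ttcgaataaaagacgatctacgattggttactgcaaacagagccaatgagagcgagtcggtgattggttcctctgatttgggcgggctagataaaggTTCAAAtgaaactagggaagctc
Cdc20: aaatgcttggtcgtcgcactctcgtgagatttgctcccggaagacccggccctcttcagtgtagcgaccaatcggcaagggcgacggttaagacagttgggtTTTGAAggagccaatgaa
They lie at chr10:69352913-69353032 for *Cdk1*, chr11:99024190-99024309 for *Top2a* and chr4:118437344-118437463 for *Cdc20*, all on the minus strand. The last stretch, of the inhibitor gene *Cdkn1b* at chr6:134920281-134920400 on the plus strand, holds neither word.
Cdkn1b: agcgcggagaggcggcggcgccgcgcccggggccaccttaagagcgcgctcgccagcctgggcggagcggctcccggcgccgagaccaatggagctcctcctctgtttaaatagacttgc

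Windows of 300 bases, of which 250 lie before the start, were given for 37 of the 46 genes. An E2F word was present in 9 of 15 replication genes, 1 of 13 mitotic genes (*Cdk1*) and 1 of 9 G1 genes (*Cdk2*), against 3.25% of the 14452 genes on the array with a window (1.84% of all 32851 windows). TTTGAA was present in 10 of 13 mitotic genes, 3 of 15 replication genes and 0 of 9 G1 genes, against 15.7% of genes on the array (17.9% of all windows). CCAAT, a common word of cell cycle promoters, was present in 12 of 13 mitotic genes, 12 of 15 replication genes and 4 of 9 G1 genes, against 42.0% of genes on the array (37.4% of all windows). A match of letters is a description of the window and not a measured binding site.

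On the arrays themselves, *Hand2* was read by a probe set that gave signals of 67.1 in wild-type and 314 in *Hand2NC* at E11.5, and of 33.4 and 706 at E12.5, which are log2 differences of 2.23 and 4.40. Its brightest probe set differed by 0.04 at E11.5 and 0.50 at E12.5. Median signals lay between 97.2 and 106 on the arrays, and all 45 genes described here lay above the signal filter in every comparison. The filter asked that at least 1 of the compared arrays reach its own median. As a sign of RNA quality, 3′ over 5′ control signals lay between 1.36 and 1.48 for *Actb* and between 0.804 and 0.890 for *Gapdh*. Only the *Hand2NC* array at E12.5 lacked signal of the Y-linked genes, with 8.72 for *Kdm5d* and 14.4 for *Eif2s3y*, against at least 535 and 840 on the other arrays. Liver and heart muscle markers were bright at E11.5, where 7 of 7 and 8 of 8 lay at or above the array median in both genotypes.

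Replication and mitotic genes had lower signals in the wild-type E12.5 head than in the wild-type E11.5 whole body, and the G1 genes divided. All 19 replication genes and all 14 mitotic genes with a value were lower, with median log2 differences of -0.46 and -0.38. Among the G1 genes, 6 were lower and 6 were higher, with a median of 0.02. Together 39 of 45 genes were lower, against 47.6% of the 12061 genes above the filter, whose median was 0.03. Differences were read against a local spread, a robust SD of the log2 differences of the 500 genes nearest in mean signal to the gene, in which measurement error and real change are mixed. Past it, 30 of the 45 genes were lower, against 14.6% of all genes, and 2 were higher, against 18.9%. None reached the 2-fold difference that the study used as its cutoff, which 7.06% of all genes passed. After centring each array on its median instead, the median of all genes was -0.10 and that of the replication genes -0.59, and 4 genes passed 2-fold.

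**Figure D1:**
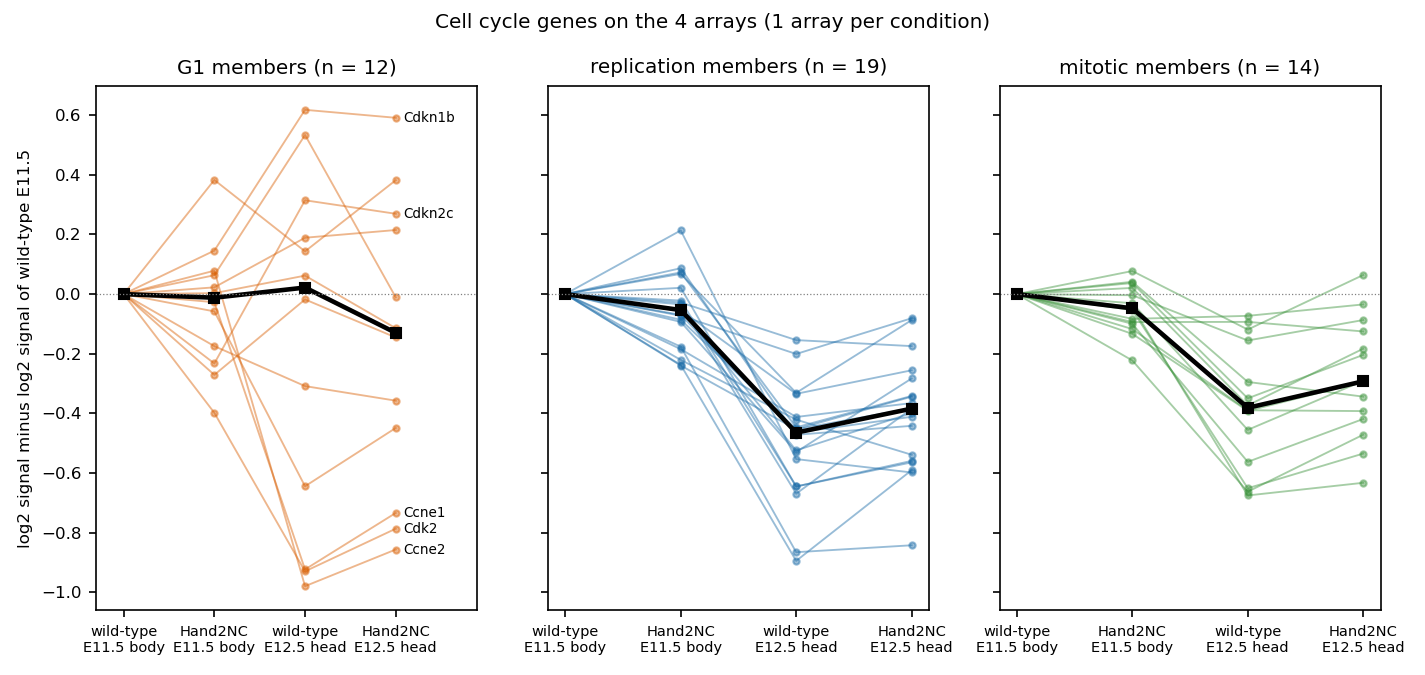
Log2 signal of each gene minus its log2 signal on the wild-type E11.5 array, on the vertical axis, across the 4 arrays on the horizontal axis, in panels for 12 G1, 19 replication and 14 mitotic genes. Thin lines are genes and the black line is their median. The replication and mitotic medians drop to -0.46 and -0.38 on the wild-type E12.5 array, and the G1 genes spread to both sides.

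The G1 genes held both the lowest and the highest differences. *Ccne2*, one of the E-type cyclin genes that open S phase, had signals of 1987, 2098, 1008 and 1098 in wild-type E11.5, *Hand2NC* E11.5, wild-type E12.5 and *Hand2NC* E12.5, the order used throughout. Both E12.5 arrays lay far below both E11.5 arrays, and the wild-type difference was -0.98 (local spread 0.33). The other E-type cyclin gene, *Ccne1*, had signals of 959, 941, 506 and 576 and a wild-type difference of -0.92 (local spread 0.34). *Cdk2*, the kinase of both E cyclins, had signals of 2083, 1581, 1094 and 1208 and a difference of -0.93 (local spread 0.32). For each of these genes the lowest signal was that of the wild-type E12.5 head.

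The inhibitors of cyclin-dependent kinases differed the other way. *Cdkn1b*, which encodes p27, had signals of 1511, 1672, 2319 and 2276, so both E12.5 arrays lay above both E11.5 arrays, and the wild-type difference was 0.62 (local spread 0.34). *Cdkn2c*, which encodes p18 and holds back *Cdk4* and *Cdk6*, had signals of 492, 419, 611 and 593, with a wild-type difference of 0.31 that lay within its local spread of 0.41. *Cdkn1a*, which encodes p21, had signals of 538, 562, 779 and 534, and its wild-type difference of 0.53 came from the wild-type E12.5 array alone. A second, dimmer probe set of *Cdkn1a* read 302, 238, 213 and 237, a wild-type difference of -0.50. Both exceed their local spreads of 0.40 and 0.49, so the direction of *Cdkn1a* depends on the probe set.

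The D-type cyclins, which link growth signals to G1, did not share a direction. *Ccnd3* had signals of 2154, 2069, 1378 and 1578, lower on both E12.5 arrays (-0.64 in wild-type, local spread 0.35). *Ccnd1* had 5386, 5472, 6140.2 and 6251 and *Ccnd2* had 11976, 9928, 11828 and 10829. Their wild-type differences of 0.19 and -0.02 lay within the local spread. Dimmer probe sets of these genes were all higher, from 0.05 to 0.54 for *Ccnd1* and from 0.14 to 0.29 for *Ccnd2*. Past their local spreads were 0.54 for *Ccnd1* and 0.23 and 0.27 for *Ccnd2*. Of the kinases that bind D cyclins, *Cdk4* differed by -0.31 (local spread 0.24) with signals of 8578, 7601, 6927 and 6697, and *Cdk6* by 0.06 with signals of 870.3, 872, 908 and 804. *E2f1*, itself a target of E2F factors, had 272, 354, 300.2 and 354 and a wild-type difference of 0.14 within its local spread of 0.45. By their brightest probe sets, the E cyclins and *Cdk2* thus stood apart from the D cyclins on this array pair. Medians were -0.93 over 3 genes and -0.02 over the 5 D cyclin and *Cdk4*/6 genes.

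Among the replication genes, the lowest differences were those of *Orc6* and *Cdc6*, which act in the licensing of origins. *Orc6*, a subunit of the origin recognition complex, had signals of 2383, 2021, 1282 and 1583 and a wild-type difference of -0.89 (local spread 0.35). *Cdc6*, which loads the Mcm helicase onto that complex, had 1391, 1232, 764 and 776 and a difference of -0.87 (local spread 0.32). Every E12.5 signal of these genes lay below every E11.5 signal. *Orc1*, the largest subunit of the complex, had 349.8, 406, 238 and 231 and differed by -0.55, and *Cdt1*, which loads the helicase with *Cdc6*, had 5123, 4936, 4063 and 4292 and differed by -0.33. All 4 licensing genes were lower past the local spread, with a median of -0.71.

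The helicase genes were lower without exception. *Mcm6* had signals of 6321, 6414, 4043 and 4290.5, with a wild-type difference of -0.64 (local spread 0.28), the lowest of the 6 ring subunits. *Mcm2* differed by -0.53, *Mcm3* by -0.47, *Mcm4* by -0.45 and *Mcm5* by -0.45. *Mcm7* had signals of 12169, 11934, 10936 and 10784 and its difference of -0.15 lay within its local spread of 0.19. Hence 5 of the 6 subunits were lower past the local spread, with a median of -0.46.

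The factors that activate the helicase were lower too. *Gins1*, a subunit of the GINS complex, had signals of 2165, 2133, 1385 and 1465 and a wild-type difference of -0.64 (local spread 0.36). The other GINS genes differed by -0.52 (*Gins2*), -0.33 (*Gins3*) and -0.41 (*Gins4*), that of *Gins3* within its local spread of 0.40. *Cdc45*, which joins GINS on the helicase, differed by -0.46, and *Mcm10*, a further activator, by -0.42. The 6 activation genes had a median of -0.44, and 5 of them were past the local spread.

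The genes of the sliding clamp and its loader were lower as well. *Pcna*, the clamp that holds DNA polymerase, had signals of 17234, 14598, 12585 and 13221 and a wild-type difference of -0.45 (local spread 0.19). *Rfc4*, a subunit of the clamp loader, had 2759, 2694, 1735 and 2114 and a difference of -0.67 (local spread 0.29). *Rfc3*, another loader subunit, had 1369, 1302, 1191 and 1295 and differed by only -0.20, within its local spread of 0.30. In all, 16 of the 19 replication genes were lower past the local spread, and the exceptions were *Mcm7*, *Gins3* and *Rfc3*.

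**Figure D2:**
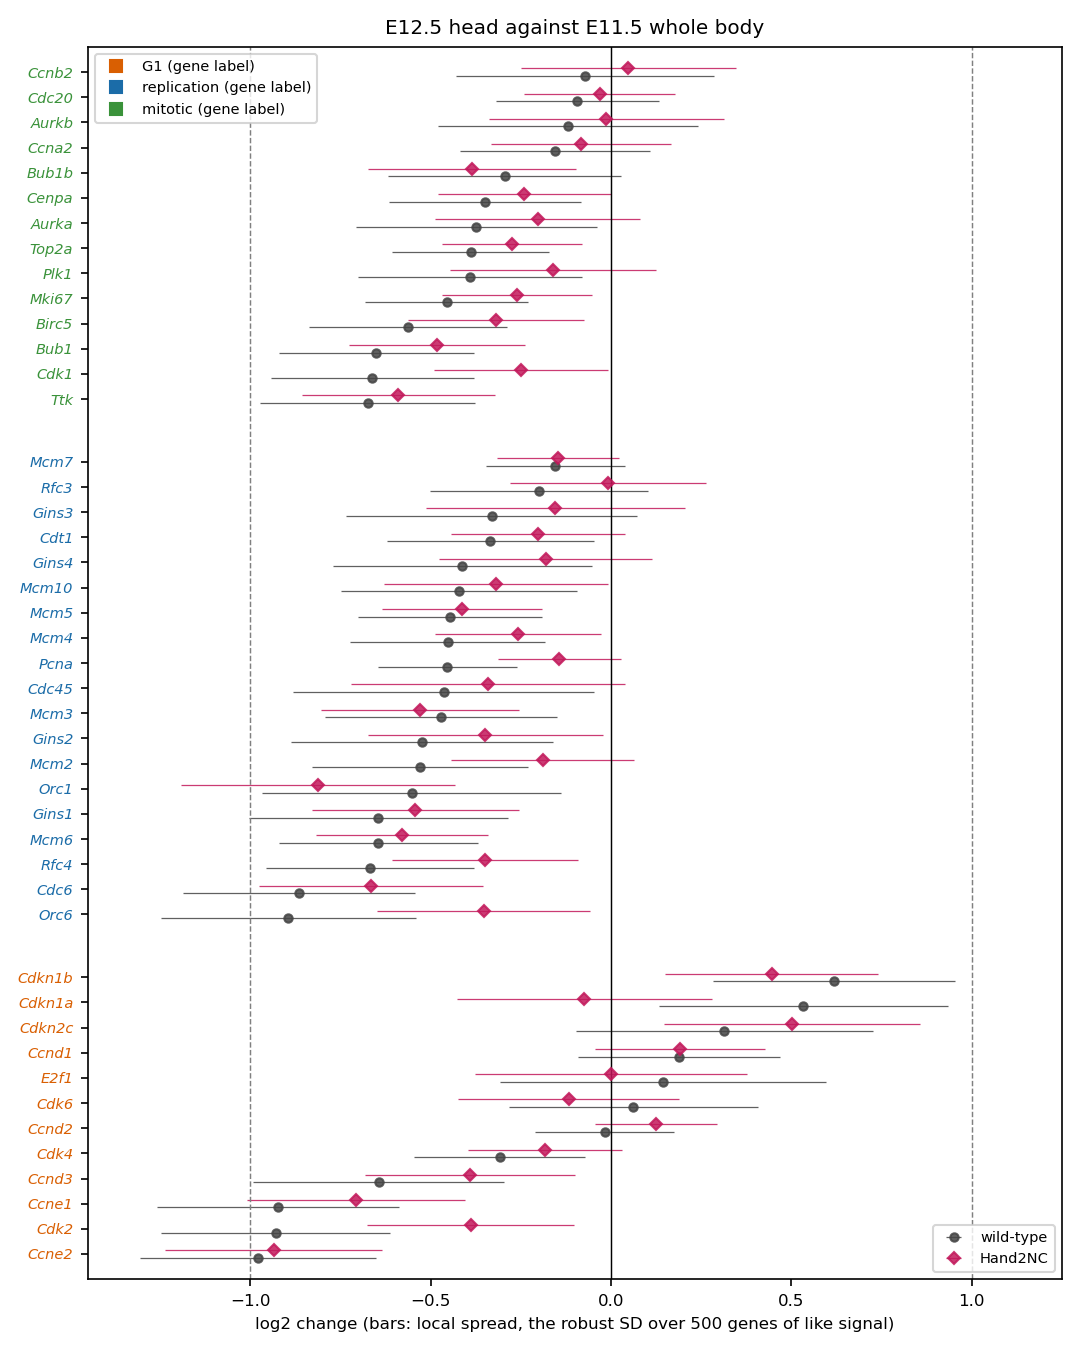
Log2 difference of the E12.5 head from the E11.5 whole body on the horizontal axis, for each of the 45 genes on the vertical axis, in wild-type (grey circles) and Hand2NC (red diamonds). Bars are the local spread and dashed lines mark 2-fold. All replication genes lie left of 0 in both genotypes, from -0.89 to -0.15 in wild-type.

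The mitotic genes were all lower, from -0.67 to -0.07. *Ttk*, a spindle checkpoint kinase gene, had signals of 1618, 1571, 1014 and 1044 and a wild-type difference of -0.67 (local spread 0.30). *Cdk1*, the kinase that drives entry into mitosis, had 6118, 5243, 3866 and 4413 and a difference of -0.66 (local spread 0.28). *Bub1*, another checkpoint kinase gene, had 4431, 4271, 2823 and 3059 and a difference of -0.65 (local spread 0.27). Each of these was lower on both E12.5 arrays than on both E11.5 arrays. A dimmer probe set of *Bub1* read 161, 283, 255 and 212, a wild-type difference of 0.66 that is past its local spread of 0.49 the other way.

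*Birc5*, which encodes survivin of the chromosomal passenger complex, had 5045, 4708, 3416 and 3774 and a wild-type difference of -0.56. *Mki67*, the source of the Ki-67 proliferation antigen, had 9882, 9674, 7209 and 8079 and a difference of -0.46. *Top2a*, which untangles chromosomes, had 10807, 9964, 8251 and 8235 and a difference of -0.39. All of these were past the local spread, as were *Aurka* (-0.37) and *Plk1* (-0.39), kinases of the spindle poles, and *Cenpa* (-0.35), the histone of centromeres. *Bub1b*, a further checkpoint gene, differed by -0.29, within its local spread of 0.32.

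The smallest differences were those of *Ccnb2* (cyclin B2; 2927, 2763, 2783 and 2858, -0.07) and *Cdc20*, which activates the anaphase-promoting complex (8654, 8109, 8113 and 7935, -0.09). *Aurkb*, the kinase of the passenger complex, differed by -0.12 and *Ccna2*, which encodes cyclin A2, by -0.16. None of these was past the local spread. A second probe set of *Ccna2*, with signals of 3404, 2942, 2437 and 2549.7, differed by -0.48, past its local spread of 0.36. *Cdc20* and *Cdk1* both hold the TTTGAA word shown above. Of the mitotic genes, 9 of 14 were lower past the local spread.

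In *Hand2NC* the step from E11.5 body to E12.5 head again had lower replication and mitotic genes, with medians nearer 0 than in wild-type. Of the 45 genes, 40 were lower, against 45.1% of 11990 genes, and the medians were -0.34 for replication, -0.24 for mitotic and -0.10 for G1 genes, against 0.04 for all genes. Past the local spread 23 genes were lower, against 14% of all genes, and 2 were higher, against 19.4%. No gene passed 2-fold, against 5.11% of all genes. All 19 replication genes were again lower, and 11 of them past the local spread.

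The order of the genes within each role was not the same in the mutant. *Ccne2* (-0.93) and *Ccne1* (-0.71) were the lowest G1 genes, followed by *Ccnd3* (-0.39) and *Cdk2* (-0.39), and the 4 higher ones were *Cdkn2c* (0.50), *Cdkn1b* (0.45), *Ccnd1* (0.19) and *Ccnd2* (0.13). Of the replication genes, *Orc1* (-0.81), *Cdc6* (-0.67) and *Mcm6* (-0.58) were lowest and *Rfc3* was nearest 0 at -0.01. Of the mitotic genes, *Ttk* (-0.59), *Bub1* (-0.48) and *Bub1b* (-0.38) were lowest, and *Ccnb2* at 0.05 was the sole one above 0. The difference between the genotypes' steps has no test with 1 array per condition. It comes from the same arrays as the genotype differences given below and is no separate observation.

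The order of the arrays was then counted gene by gene. Both E11.5 arrays were above both E12.5 arrays in 19 of 19 replication genes, 11 of 14 mitotic genes and 5 of 12 G1 genes. That is 77.8% of the 45 genes, against 30.5% of the 11409 genes above the filter in all 4 comparisons. The mitotic exceptions were *Ccnb2*, *Aurkb* and *Cdc20*. The G1 exceptions were *Ccnd1*, *Ccnd2*, *Cdk6*, *Cdkn1a*, *Cdkn1b*, *Cdkn2c* and *E2f1*. The wild-type E12.5 array was the lowest of the 4 for 30 of the 45 genes, or 66.7% against 26.9% of all genes, and the wild-type E11.5 array was the highest for 29 of them, or 64.4% against 26.4%.

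Other probe sets of the same genes gave the same direction for replication. In wild-type, 40 further probe sets above the filter read 27 of the genes, and of those for replication genes 16 of 17 were lower in the E12.5 head. In *Hand2NC* it was 18 of 19. For the mitotic genes 6 of 9 were lower in wild-type and 8 of 9 in *Hand2NC*, and for the G1 genes 5 of 14 and 7 of 14. Probe sets of a gene read the same RNA and are no replicates.

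Further cell cycle genes, outside the 46, were counted in the same way. In wild-type, 32 of 32 other replication genes were lower (18 past the local spread, median -0.36), as were 37 of 43 other mitotic genes (21 past it, median -0.34) and 15 of 18 other G1 and E2F genes (5 past it, median -0.21). *E2f2*, a further activating E2F, had signals of 422, 404, 208 and 244 and was the one gene of these lists past 2-fold, at -1.02. *Rbl2*, a retinoblastoma relative that keeps resting cells out of the cycle, had 211, 303, 366 and 360, a difference of 0.79. *Rpa3*, of the complex that coats single-stranded DNA, differed by -0.80 and *Gmnn*, which blocks relicensing, by -0.75. These genes were chosen after their values were seen. Among p53 target genes, 7 of 12 were lower, none of them past the local spread, and 5 were higher, 2 past it.

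Markers of other cell types also differed over the same pair of arrays. In wild-type all 10 neuron markers were higher in the E12.5 head (8 past 2-fold, median 1.07), with a summed signal of 19160 at E11.5 and 39201 at E12.5. All 8 neural progenitor markers were higher too (median 0.51), with sums of 36914 and 46223. Of the erythroid markers 7 of 7 were lower (median -1.20; sums of 82507 and 55726), of the liver markers 6 of 7 (median -5.44; sums of 39783 and 18002) and of the heart muscle markers 8 of 8 (median -4.40; sums of 21280 and 5089.8). *Alb*, the liver albumin gene, read 9009.5 and 29.1, and *Myl2*, a ventricular myosin gene, 3739 and 19.9. *Ttr*, which the choroid plexus of the brain also makes, was the liver marker that was higher, with 9223 and 17721, and makes up nearly all of the liver sum at E12.5. At E12.5 only 2 of 7 liver and 3 of 8 heart muscle markers reached the array median. The replication genes summed to 76861 and 56859 and the mitotic genes to 64225 and 49680 on the same arrays. The part of this change of tissue in the values of the cell cycle genes was not tested, and in bulk RNA fewer cells of a type cannot be told from less RNA per cell.

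**Figure D3:**
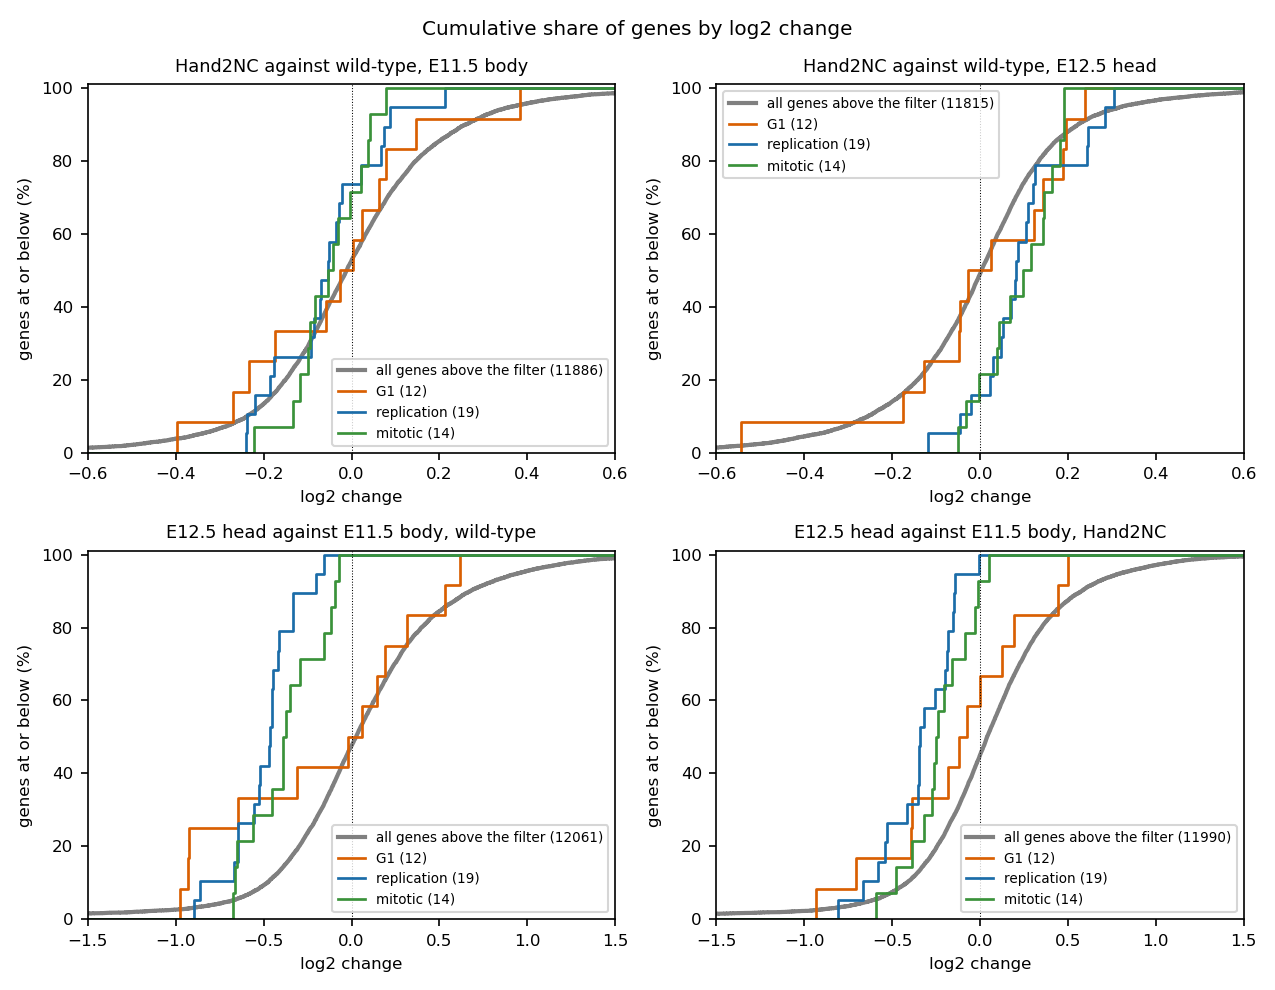
Cumulative share of genes (vertical axis, %) at or below a given log2 difference (horizontal axis) in each of the 4 comparisons, for all genes above the filter (grey) and for the 12 G1, 19 replication and 14 mitotic genes. In the lower panels, which set the E12.5 head against the E11.5 body, the replication and mitotic curves lie left of the grey curve for most of their course, and in the upper panels they lie close to it, mostly to its right at E12.5.

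Between genotypes the cell cycle genes differed little. At E11.5, 30 of the 45 genes were lower in *Hand2NC* and 15 were higher, against 52.8% of 11886 genes lower. After centring each array on its median 36 were lower and 9 higher, but that centring also moved the median of all genes to -0.07. Without it, medians were -0.05 for replication, -0.05 for mitotic and -0.01 for G1 genes, against -0.01 for all genes. Past the local spread 12 genes were lower, against 17.2% of all genes, and 2 were higher, against 16.1%. None was past 2-fold, against 0.446% of all genes. The direction rests on the choice of probe set, since 43 further probe sets that passed the filter read these genes and 28 of them were higher and 15 lower in *Hand2NC*.

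Those past the local spread at E11.5 came from each role. *Cdk2* had the lowest difference, at -0.40 (local spread 0.11), with the wild-type signal of 2083 the highest of its 4 arrays. *Ccnd2* followed at -0.27, but of its further probe sets 1 was past its local spread the other way at 0.30. *Cdkn2c* (-0.23) and *Cdk4* (-0.17) were lower as well, while *E2f1* (0.38, local spread 0.23) and *Cdkn1b* (0.15, local spread 0.12) were higher and *Ccne2* stood at 0.08.

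Of the replication genes, *Pcna* (-0.24), *Orc6* (-0.24), *Mcm10* (-0.22), *Gins4* (-0.18) and *Cdc6* (-0.18) were lower past the local spread. *Orc1* (0.21), *Mcm3* (0.09) and *Mcm5* (0.07) had the highest values, each within it. None of the 6 ring subunits of the Mcm helicase was past the local spread by its brightest probe set. Dimmer probe sets were past theirs for *Mcm4* (0.25), *Mcm6* (0.24), *Mcm3* (-0.27) and *Mcm5* (-0.32 and, from signals of 102 and 48.3, -1.08). Of the mitotic genes, *Cdk1* (-0.22), *Plk1* (-0.13) and *Top2a* (-0.12) were lower past the local spread, and the highest were *Aurkb* (0.08), *Bub1b* (0.04) and *Cenpa* (0.04), within it. Of 9 further probe sets of mitotic genes above the filter, 8 were higher and 1 was lower. Those of *Bub1* (0.82), *Ttk* (0.60) and *Aurkb* (0.20) were higher past their local spreads, and that of *Ccna2* (-0.21) was lower past its own.

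Among the other lists at E11.5, 23 of 32 replication genes were lower (14 past the local spread, median -0.09), and 3 were higher past it. Of 43 mitotic genes 27 were lower (8 past the local spread, median -0.04), and 6 were higher past it. Over all genes 52.8% were lower, 17.2% lower past the local spread and 16.1% higher past it. G1 and E2F genes were 9 higher and 9 lower. *Tyms*, which makes thymidylate for DNA, stood at -0.54 (local spread 0.38) from dim signals of 156 in wild-type and 107 in *Hand2NC*. *Foxm1*, a driver of mitotic genes, stood at -0.46 and *Rbl2* at 0.52. Erythroid markers were lower in 5 of 7, with sums of 82507 in wild-type and 75112 in *Hand2NC*, and liver markers in 6 of 7, with sums of 39783 and 38909. Neuron markers were higher in 6 of 10, against 47.2% of all genes. Progenitor markers were 4 higher, *Nes* most of all at 0.90, and 4 lower. Their part in the values above was not tested.

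At E12.5 the balance lay on the other side. In *Hand2NC* heads 33 of the 45 genes were higher, against 50.9% of 11815 genes, and 25 were so by the mean over all probe sets of a gene. After centring each array on its median 41 were higher, but that centring also moved the median of all genes to 0.06. Without it, the medians were 0.08 for replication and 0.11 for mitotic genes, and those of G1 genes and of all genes lay near 0. Past the local spread 18 genes were higher, against 16.9% of all genes, and 3 were lower, against 16.2%. By the mean over probe sets 10 were higher past it and 9 lower. Again none was past 2-fold, against 0.398% of all genes. These differences share the wild-type E12.5 array with the wild-type step between stages, so a low signal on that array enters both. The genotype differences at E11.5 likewise share the wild-type E11.5 array with that step, so a high signal there enters both.

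The G1 genes at E12.5 held the lowest value of all. *Cdkn1a* had signals of 779 in wild-type and 534 in *Hand2NC*, a difference of -0.54 (local spread 0.17), but its second probe set differed by 0.15. *Cdk6* (-0.18) and *Ccnd2* (-0.13) were also lower past the local spread, and of *Ccnd1* a dimmer probe set stood at -0.50 where the brightest stood at 0.03. *E2f1* (0.24), *Ccnd3* (0.20), *Ccne1* (0.19), *Cdk2* (0.14) and *Ccne2* (0.12) were higher past it. The genes of cyclin E and *Cdk2* were thus all higher, and the 3 inhibitor genes were all lower with 1 of them past the local spread.

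Of the replication genes, 16 of 19 were higher and 6 of these past the local spread. *Orc6* had 1282 in wild-type and 1583 in *Hand2NC*, a difference of 0.30 (local spread 0.12). *Rfc4* had 1735 and 2114 (0.29, local spread 0.11), and *Mcm2* had 1789.9 and 2123 (0.25, local spread 0.10). *Gins3* (0.24), *Mcm4* (0.11) and *Mcm5* (0.11) followed, the last with a dimmer probe set at -0.88, which is past its own local spread of 0.52. The 3 lower genes were *Mcm10* (-0.12), *Orc1* (-0.04) and *Mcm7* (-0.02), all within the local spread.

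Of the mitotic genes, 11 of 14 were higher and 7 past the local spread. *Cdk1* had 3866 and 4413 (0.19, local spread 0.09), and *Aurka* (0.19), *Aurkb* (0.18) and *Mki67* (0.16) came next. *Cenpa* (0.15), *Birc5* (0.14) and *Bub1* (0.12) completed them, but dimmer probe sets of *Cenpa* and *Bub1* were lower past their local spreads, at -0.27 and -0.26. *Bub1b* (-0.05) and *Cdc20* (-0.03) were lower within the local spread, and *Top2a* was nearly equal at 8251 and 8235. Dimmer probe sets of *Cdc20* (-0.38) and *Ttk* (-0.43, against 0.04 for its brightest) were also lower past their local spreads, and that of *Top2a* (0.23) was higher past its own. Of 9 further probe sets of mitotic genes above the filter, 5 were higher and 4 lower. The direction of 6 was opposite to that of the brightest probe set. Over all roles 41 further probe sets read these genes, 23 of them higher and 18 lower.

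**Figure D4:**
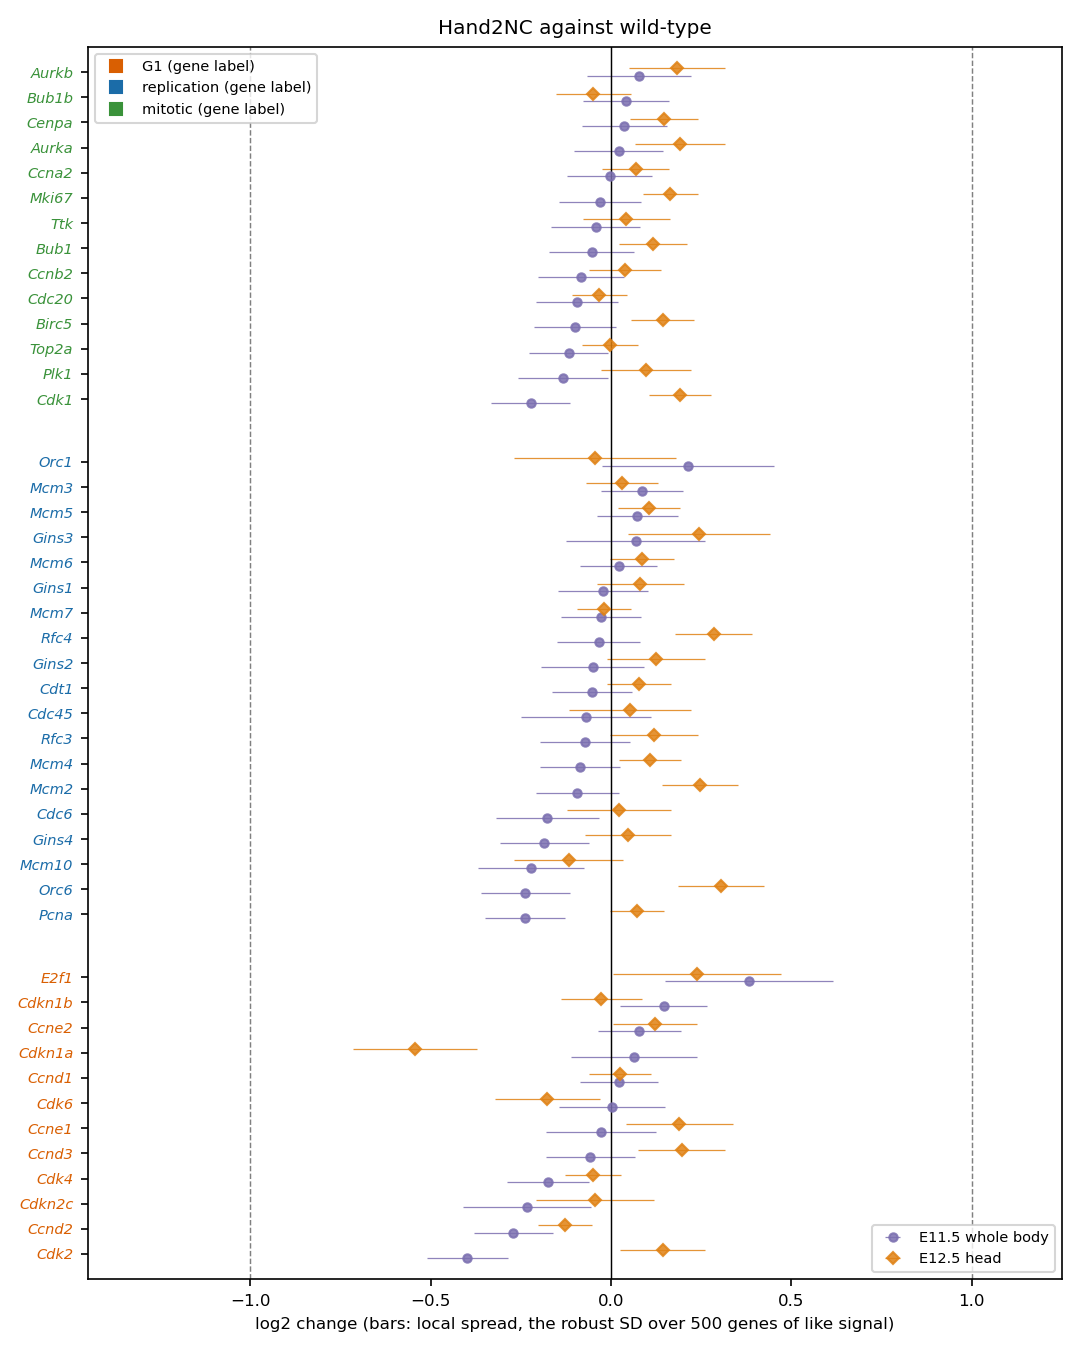
Log2 difference of Hand2NC from wild-type on the horizontal axis, for each of the 45 genes on the vertical axis, in the E11.5 whole body (purple circles) and the E12.5 head (orange diamonds). Bars are the local spread and dashed lines mark 2-fold. No gene comes near 2-fold, and the lowest value is that of Cdkn1a at E12.5, -0.54.

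The other lists stood alike at E12.5, with 26 of 32 other replication genes higher (11 past the local spread, median 0.08) and 31 of 43 other mitotic genes (18 past it, median 0.08). Of the other G1 and E2F genes 13 of 19 were higher, *E2f4* most of all at 0.73 from dim signals of 63.1 and 104. *Sesn2*, a p53 target gene, stood at 0.66 and also came from dim signals, 81.0 and 128. Neuron markers were lower in 9 of 10, 7 of them past the local spread, with sums of 39201 in wild-type and 35514 in *Hand2NC*. Neural progenitor markers were 4 higher and 4 lower, with *Hes5* at 0.48. Of 5 erythroid markers above the filter 3 were lower, *Alas2* most of all at -0.67, and 2 were higher, each past the local spread. Whether the smaller neuron signal, or the missing Y-linked signal of the *Hand2NC* array, has a part in the higher cell cycle values was not tested.

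Set side by side over the stages, *Orc6* (-0.24 and 0.30), *Cdk2* (-0.40 and 0.14) and *Cdk1* (-0.22 and 0.19) were past the local spread at both stages, in opposite directions. *E2f1* (0.38 and 0.24) was higher past it at both stages by its brightest probe set, while another of like signal stood at -0.09 and 0.14, within its local spread. *Ccnd2* (-0.27 and -0.13) was lower at both by its brightest probe set.

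The genes were then divided by the words in their windows. In the wild-type step from body to head, the 9 replication genes with an E2F word had a median of -0.45 and the 6 without one -0.50. In the mitotic genes with a value and a window, the 10 with TTTGAA had a median of -0.38 and the 2 without it, *Bub1* and *Birc5*, of -0.61. Between genotypes, replication genes with and without an E2F word had medians of 0.02 and -0.16 at E11.5. At E12.5 the medians were 0.08 and 0.16 for replication genes with and without an E2F word, and 0.07 and 0.13 for mitotic genes with and without TTTGAA. These groups are small and the values have no test.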

How the data were processed

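RNA of 4 conditions was read on 4 arrays, 1 for each condition. As deposited, each probe set has 1 linear intensity value per array, for which the submitters' processing notes name MAS5 and no version. The signals of 45037 probe sets, with 64 controls left out, were brought to a trimmed mean of 500 on each array (2% trimmed at each end) and turned into log2 with no pseudocount. The platform annotation gives 34945 probe sets 1 symbol, 932 several and 9160 none. RefSeq (GRCm38.p6) served for names, where 34741 probe sets had their gene identifier and 0 symbols changed, and for promoter windows. Every value column matched a sample. The brightest single-symbol probe set stood for each gene.

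A gene was compared where at least 1 array of the pair reached its own median (50th percentile). With 1 array per condition no test was run, and counts and medians are given beside those of all genes. Any listed gene could be named, with the 3 highest and 3 lowest of each role in each comparison, members whose probe sets disagree past the local spread, and up to 4 genes of the other lists, those of largest difference. E2f2, Rbl2, Rpa3, Gmnn and Ttr between stages were named outside this rule, after their values were seen. So were dimmer probe sets of Ccnd1 and Ccnd2 and the further probe sets of mitotic genes between genotypes. The genes and lists were chosen with earlier results of these data known. Counting was checked on simulated data. Alternatives changed the scaling (unscaled, median centring, quantile, loess with span 0.3), the filter (none, both arrays, 75th percentile), dim values and the probe set. Computing used matplotlib 3.10.9, pandas 2.3.3, numpy 2.4.6, statsmodels 0.14.6, scipy 1.17.1 and Python 3.11.15. The number of arrays limits the precision.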

Additional observations from a re-analysis of the deposited data

Results flagged for a closer look

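Cdk2, Orc6 and Cdk1 were looked at again because their difference between Hand2NC and wild-type was past the local spread at both stages and in opposite directions. Cdk2 stood at -0.40 at E11.5 and 0.14 at E12.5. Orc6 stood at -0.24 and 0.30, and Cdk1 at -0.22 and 0.19. The stages hold different tissues and 1 array per condition, and the difference between the stages was not tested.

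Dimmer probe sets that the gene values do not use passed 2-fold for Cdc45 and Mcm5. That of Cdc45 was higher in Hand2NC by 1.41 at E11.5, with signals of 51.2 and 136, and by 1.29 at E12.5, with 57.8 and 142, while the brighter probe set stood at -0.07 and 0.05. That of Mcm5 stood at -1.08 at E11.5, with signals of 102 and 48.3, against 0.07 for the brighter one. All of these signals lie near or below the array medians.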

How the results depend on the processing

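No paired analysis was possible because each condition has 1 array and the labels carry no replicate numbers. Of the medians and counts over the 45 genes, 298 under alternatives stayed near the reported values and 22 did not. Near meant within 0.1 log2 for a median and a ratio of 1.5 for a count. The genotype medians are themselves about 0.1 or smaller, so the G1 median at E11.5, from -0.07 to 0.02, counted as near. Of the single-gene values 1715 stayed within the local spread of the reported value, 56 moved further and 11 changed direction. A change of direction was counted only for reported values past the local spread, so smaller ones may also have changed sign. The replication median kept its sign in every alternative, from -0.59 to -0.45 in the wild-type step between stages and from -0.37 to -0.30 in that of Hand2NC, from -0.11 to -0.04 between genotypes at E11.5 and from 0.07 to 0.14 at E12.5. The mitotic median did so as well. Centring the arrays on their medians moved the wild-type step to -0.10 (G1), -0.59 (replication) and -0.50 (mitotic) with 4 genes past 2-fold. It left 9 genes higher at E11.5, 1 of them past the local spread, with 19 lower past it, and 4 lower at E12.5, 1 past it. The same centring moved the median of all genes between genotypes to -0.07 at E11.5 and 0.06 at E12.5. Quantile normalization put 1 gene past 2-fold in the wild-type step, and the 75th percentile filter left 1 gene higher past the local spread at E11.5. The mean over all probe sets, dim ones included, moved most. At E11.5 it gave 2 genes past 2-fold and 8 higher past the local spread, and at E12.5 20 genes lower, 9 of them past the local spread, 10 higher past it and a G1 median of -0.12. Between stages it gave 2 genes past 2-fold, 11 higher and a mitotic median of -0.24 in wild-type, and 1 past 2-fold and 9 higher in Hand2NC. It turned the direction at E12.5 of Cdk2 (-0.86), E2f1 (-0.45), Mcm5 (-0.28), Bub1 (-0.073) and Aurka (-0.0371), in the wild-type step of Ccnd3 (0.036) and Bub1 (0.00631), and in the Hand2NC step of Mcm6 (0.67), Cenpa (0.32) and Mcm5 (0.066). Without the probe sets of shared sequence (_x_at and _s_at) Mcm5 stood at -0.071 at E12.5. The cause of these shifts was not tested. Dim signals limit the further probe sets, and none of the values has a replicate.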
